A study of Mus musculus with 37 samples.

Results

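Glutamate receptors carry most fast excitatory transmission in the hippocampus, and the set described here holds 33 genes for their subunits, their auxiliary proteins and their scaffolds. The members were taken by name from a list of AMPA, NMDA, kainate, delta and metabotropic receptor genes and of their partners, after the Ensembl identifiers of the counts table had been matched to symbols in GENCODE M21. They are 33 of the 48795 genes in that table, and 31 of them passed the filter on low counts, as did 16799 genes in all. The study asked what the loss of the histone demethylase Kdm1a in adult forebrain neurons does to the hippocampus. RNA was sequenced from the hippocampi of 3 Kdm1a-ifKO mice and 3 controls, with 1 library per mouse. The Kdm1a-ifKO mice carried floxed Kdm1a alleles (Kdm1a f/f) and the Camk2a-creERT2 transgene, and the controls were littermates without Cre. Both groups were male, on a C57BL/6J background, and received tamoxifen at 8 weeks of age. The age at collection is not given in the sources used here. The Camk2a promoter limits the recombinase to principal neurons of the forebrain, so interneurons, glia and vessels in the same tissue keep Kdm1a.

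Glutamate opens ion channels built from several subunits and also acts on receptors coupled to G proteins. AMPA receptors give the fast current of most hippocampal synapses, NMDA receptors admit calcium when glutamate meets a depolarised membrane and are needed for long-term potentiation at many of them, and kainate receptors tune release and excitability, above all at the mossy fibre synapses of CA3. Auxiliary proteins such as the cornichons, the Shisa proteins and the Neto proteins sit beside the pore and set how channels travel, gate and desensitise, while scaffolds hold them in the postsynaptic density.

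The control libraries held 19160327, 19088998 and 18985542 counts, and the Kdm1a-ifKO libraries 19469947, 19445743 and 19370926. Levels of 1 gene across libraries are given as CPM, counts scaled to a common library size with TMM factors. Kdm1a, the deleted gene, stood at 79.5, 81.1 and 79.6 CPM in controls and 39.3, 36.9 and 38.4 in Kdm1a-ifKOs, a log2 fold change of -1.07 (SE 0.0559). Every Kdm1a-ifKO library lay below every control, which fits the labels of all 6 libraries. The gene overlaps Luzp1 and Gm12987, and the strand setting of the counting is not stated, so counts of overlapping genes are uncertain here and below. Control replicate 3 and Kdm1a-ifKO replicate 2 stood apart from the 4 other libraries on the second principal component, which held 16.6% of the variance, while the first held 50.2% and separated the genotypes. In control replicate 3 the genes with the longest transcripts also stood high. Its median log2 deviation from the mean of the 6 libraries was 0.11 over the 3352 tested genes of the longest of 5 length groups and -0.04 over the 3356 genes of the shortest. Over the longest group, control replicates 1 and 2 stood at -0.0037 and -0.0057 and the Kdm1a-ifKO libraries at -0.039, -0.014 and -0.051. Over the shortest, these were -0.00041 and -0.0038, and 0.017, 0.011 and 0.024. Every Kdm1a-ifKO library was thus below all controls in the longest group and above them in the shortest. Over the 31 tested members, with a median length of 5.55 kb, the deviation of control replicate 3 was -0.043, though for long members such as Gria2, Grin2b and Grm5 this library was the highest. Results are therefore also given without these 2 libraries.

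Few members changed. Grin2d and Grm3 rose and Gria3 and Neto2 fell in Kdm1a-ifKOs with adjusted p-values under 0.05 (edgeR, quasi-likelihood, Benjamini-Hochberg over all tested genes). These are 2 members higher and 2 lower of 31 tested, where 6.04% of all tested genes were higher (1014) and 2.82% were lower (473). For the increases this share is near the background and is not a result about the members as a set. The median log2 fold change was -0.067 over the 31 members and -0.0034 over all tested genes. Counts at an unadjusted p-value under 0.05 were 13 of 31 members (41.9%) and 4108 of all tested genes (24.5%). All 3 Kdm1a-ifKO libraries lay above all 3 controls for 5 of the 31 tested members and below them for 5, against 15.7% and 14.4% of all tested genes. The counts depend on the fit. Of the 31 tested members, 15 were called in at least 1 of the fits, and no such total is given for all genes. DESeq2 called 5 members lower, among 527 lower of 28781 genes, and edgeR without a filter on low counts called 8, among 1090 of as many genes. These 2 fits called 2 and 3 members higher, among 872 and 1447 genes higher in all. They also shifted when single libraries were left out. Members called lower numbered 4 when control replicate 2 or control replicate 3 was left out, among 364 and 340 genes lower in all. They numbered 1 when Kdm1a-ifKO replicate 1 was left out. Over all genes, 646 were higher and 137 lower without Kdm1a-ifKO replicate 3, and 164 were lower without Kdm1a-ifKO replicate 1. With both libraries that stand apart left out, an alternative added after the data were seen, 5 members were called higher and 5 lower, among 1039 and 560 genes in all.

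**Figure D1:**
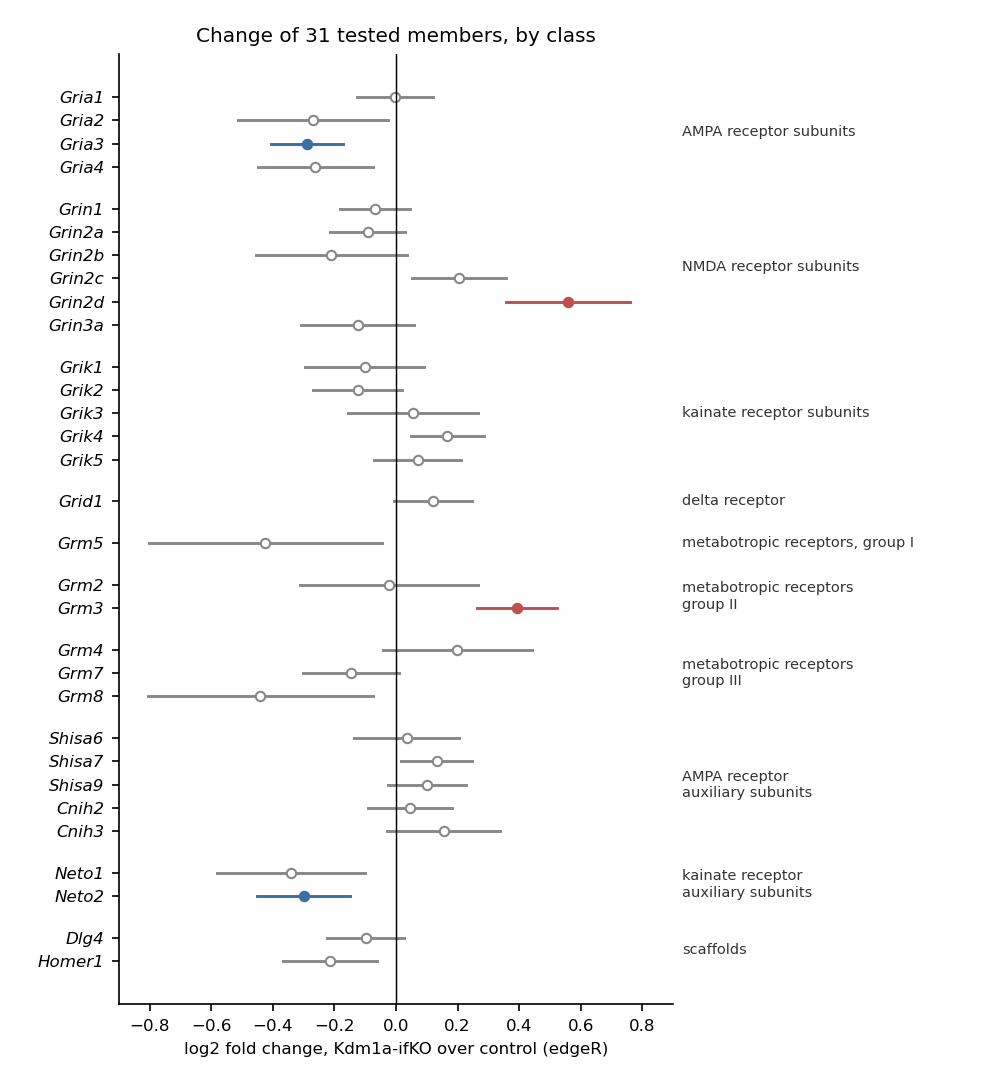
Log2 fold change of the 31 tested members (points) with a 95% confidence interval derived from edgeR's F statistic (lines), Kdm1a-ifKO over control, 3 libraries each, ordered by class. Filled points passed an adjusted p-value of 0.05: Grin2d at 0.56 and Grm3 at 0.39 in red, Gria3 at -0.29 and Neto2 at -0.30 in blue.

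Promoters were available from RefSeq for 21 of the 33 members, 28 windows that run from 250 bases before to 50 bases after a start site (GRCm38.p6). Those of called members are printed because these genes moved and, at Neto2, because a CTCF loop anchor covers the window. A second Neto2 window (chr8:85690960-85691259, minus strand), with 0 GC boxes and 0 CpG dinucleotides, is not printed. Capitals mark GGGCGG, the core of the GC box, searched on both strands. It occurs in 15 of the 28 member windows (53.6%) and in 35.7% of the 32851 windows of all genes. The Grm3 window (chr5:9725303-9725602, minus strand) holds 2 copies in a single G-rich run that straddles the RefSeq start. This whole window lies before the 5′ end of the gene as GENCODE draws it, at 9725170. The printed Neto2 window (chr8:85700875-85701174, minus strand) holds 2 separate copies and 36 CpG, against medians of 16.5 over member windows and 7 over all windows. The Grin2d window (chr7:45866632-45866931, minus strand) holds 0 copies and 12 CpG. It starts inside the gene as GENCODE draws it, whose 5′ end is at 45878378, so another start of this gene lies outside the printed bases. Gria3 has no sequence printed here. Of other motifs, CAGCACC, the left part of the RE1 element bound by REST, is in 7.14% of member windows and 7.14% of all windows, and TGACGTCA, the cyclic AMP response element, in 0 of 28 and 1.79%. A match describes letters, not binding.
Grm3: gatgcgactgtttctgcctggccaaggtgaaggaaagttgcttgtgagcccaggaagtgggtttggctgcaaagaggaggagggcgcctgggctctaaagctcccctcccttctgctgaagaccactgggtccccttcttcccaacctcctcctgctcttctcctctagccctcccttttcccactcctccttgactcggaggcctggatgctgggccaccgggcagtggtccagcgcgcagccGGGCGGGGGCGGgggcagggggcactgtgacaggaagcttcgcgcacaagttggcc
Neto2: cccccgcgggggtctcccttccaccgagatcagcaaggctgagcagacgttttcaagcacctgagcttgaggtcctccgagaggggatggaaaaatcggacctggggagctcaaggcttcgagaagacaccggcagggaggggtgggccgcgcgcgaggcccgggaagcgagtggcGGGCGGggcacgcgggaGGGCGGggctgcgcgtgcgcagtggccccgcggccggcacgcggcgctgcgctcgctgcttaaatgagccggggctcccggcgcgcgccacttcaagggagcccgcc
Grin2d: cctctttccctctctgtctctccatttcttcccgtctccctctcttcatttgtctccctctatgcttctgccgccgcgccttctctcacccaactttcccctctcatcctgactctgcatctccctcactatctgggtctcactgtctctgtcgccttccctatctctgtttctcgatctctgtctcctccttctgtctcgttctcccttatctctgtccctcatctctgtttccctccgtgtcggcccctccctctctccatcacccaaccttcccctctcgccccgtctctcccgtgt

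AMPA receptor subunits showed 1 of 4 genes lower and 0 higher, with a median log2 fold change of -0.27. DESeq2 and edgeR without a filter on low counts each called 3 of the 4 lower, Gria2, Gria3 and Gria4. Gria3 (chrX:41400854-41678601) encodes GluA3, which pairs with GluA2 in a share of synaptic receptors. It read 266, 265 and 286 CPM in controls and 235, 218 and 215 in Kdm1a-ifKOs. All Kdm1a-ifKO libraries were below all controls, and replicate 3 was the highest control. The log2 fold change was -0.29 (SE 0.0547, 95% interval -0.41 to -0.17, adjusted p = 0.00514, edgeR). Gria1 encodes GluA1, the subunit recruited during potentiation in CA1, and had 1235, 1289 and 1327 CPM in controls and 1364, 1190.2 and 1291 in Kdm1a-ifKOs. Its groups overlapped around a log2 fold change of -0.0026 (SE 0.0568, adjusted p = 0.986, edgeR), with a positive sign without control replicate 3 (0.025) or Kdm1a-ifKO replicate 2 (0.047) and under upper-quartile scaling (0.023). Gria2 encodes GluA2, whose edited pore keeps calcium out, and is named here after its values were seen. It read 811, 849 and 1086 CPM in controls and 786, 758 and 735 in Kdm1a-ifKOs. The groups did not overlap, yet control replicate 3 stood far above the other controls, and the log2 fold change of -0.27 (adjusted p = 0.166, edgeR) was -0.13 without that library. DESeq2 gave -0.27 with an adjusted p of 0.0222. Gria4, for GluA4, which is enriched in interneurons, had 69.9, 77.2 and 83.3 CPM in controls and 62.4, 71.6 and 58.1 in Kdm1a-ifKOs, overlapping through Kdm1a-ifKO replicate 2. Its log2 fold change of -0.26 (adjusted p = 0.0818, edgeR) became -0.35 (0.0143) once Kdm1a-ifKO replicate 2 was left out and -0.32 (0.0406) without control replicate 1, both past the threshold, as was DESeq2 (-0.26, 0.0455). In bulk tissue, fewer cells of a type and less RNA per cell cannot be told apart.

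The 5 auxiliary subunits of AMPA receptors all had positive log2 fold changes, from 0.035 to 0.15, and 0 passed the edgeR test, with 1 at an unadjusted p-value under 0.05 and 0 in DESeq2. The sign of 2 of them turned when 1 library was left out: Shisa6 read -0.033 without control replicate 2, and Cnih2 -0.0075 without Kdm1a-ifKO replicate 3. Cnih2, a cornichon that slows the closing of AMPA channels and helps them leave the endoplasmic reticulum, had 362, 369 and 346 CPM in controls and 381, 334 and 396 in Kdm1a-ifKOs. These ranges overlap fully, and the gene overlaps Yif1a on the opposite strand. Cnih3, its close relative, had 76.7, 68.0 and 63.3 CPM in controls and 83.4, 78.8 and 69.3 in Kdm1a-ifKOs, also with overlap (log2 fold change 0.15, adjusted p = 0.288, edgeR). Shisa6, which keeps AMPA receptors from desensitising at the synapse, had 228, 213 and 261 CPM in controls and 249, 221 and 250.5 in Kdm1a-ifKOs. Control replicate 3 was the highest library, and with both apart libraries left out the log2 fold change was 0.18 (adjusted p = 0.029, edgeR). Shisa7, which also acts on GABA-A receptors, had 396, 381 and 387 CPM in controls and 449, 398 and 429 in Kdm1a-ifKOs. Its groups did not overlap, though Kdm1a-ifKO replicate 2 was close to control replicate 1, and edgeR gave 0.13 (adjusted p = 0.148), or 0.18 (0.0232) without both apart libraries. Shisa9, known for its effect on short-term plasticity in the dentate gyrus, overlapped between the groups, at 68.8 ± 2.57 CPM in controls and 73.7 ± 3.68 in Kdm1a-ifKOs (SD, n = 3).

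Among 6 tested NMDA receptor subunits, 1 rose and 0 fell. Grin2d (chr7:45831883-45878378) encodes GluN2D, a subunit with slow decay and weak magnesium block that adult hippocampus holds mainly in interneurons. Its level was 14.1, 14.5 and 13.1 CPM in controls and 21.6, 18.2 and 21.8 in Kdm1a-ifKOs. All Kdm1a-ifKO libraries exceeded the controls, with replicate 2 the lowest of them. This is a log2 fold change of 0.56 (SE 0.0931, 95% interval 0.36 to 0.76, adjusted p = 0.00205, edgeR), which lay between 0.511 and 0.638 with each library left out. The gene overlaps Kdelr1 and Gm45441 on the opposite strand and Gm22098 on its own. Grin2c, for GluN2C, which the forebrain expresses largely in astrocytes, is named after its values were seen. It had 76.7, 73.0 and 73.4 CPM in controls and 77.7, 84.2 and 95.2 in Kdm1a-ifKOs. The groups touched without overlap, Kdm1a-ifKO replicate 1 being just above control replicate 1, and the log2 fold change of 0.20 (adjusted p = 0.0898, edgeR) passed the threshold without that Kdm1a-ifKO library (0.27, 0.0489).

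The obligatory subunit GluN1 and the main partners GluN2A and GluN2B did not pass the test with all libraries and the filter on low counts. Grin1 had 377, 355 and 338 CPM in controls and 349, 336 and 338 in Kdm1a-ifKOs, with overlap (log2 fold change -0.067, adjusted p = 0.466, edgeR), and it overlaps Grin1os on the opposite strand. Grin2b, whose subunit prevails early in life and remains in adult CA fields, had 582, 584 and 752 CPM in controls and 594, 539 and 524 in Kdm1a-ifKOs. Control replicate 3 stood alone at the top, and the log2 fold change of -0.21 (adjusted p = 0.273, edgeR) was -0.074 without it, while edgeR without a filter on low counts called it lower (-0.20, 0.00634). Grin2a, the subunit that gains during postnatal development, was 374 ± 12.9 CPM in controls and 351 ± 22.9 in Kdm1a-ifKOs (SD, n = 3). Grin3a, for a subunit that lowers calcium entry, was 46.7 ± 1.91 CPM and 42.8 ± 5.39, and its groups overlapped as did those of Grin2a. Grin3b was not tested for lack of counts: 2, 5 and 7 counts in controls and 11, 9 and 13 in Kdm1a-ifKOs. The Kdm1a-ifKO libraries were all above the controls, but the gene overlaps Tmem259 on the opposite strand, and at such depth the counts carry no firm difference.

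**Figure D2:**
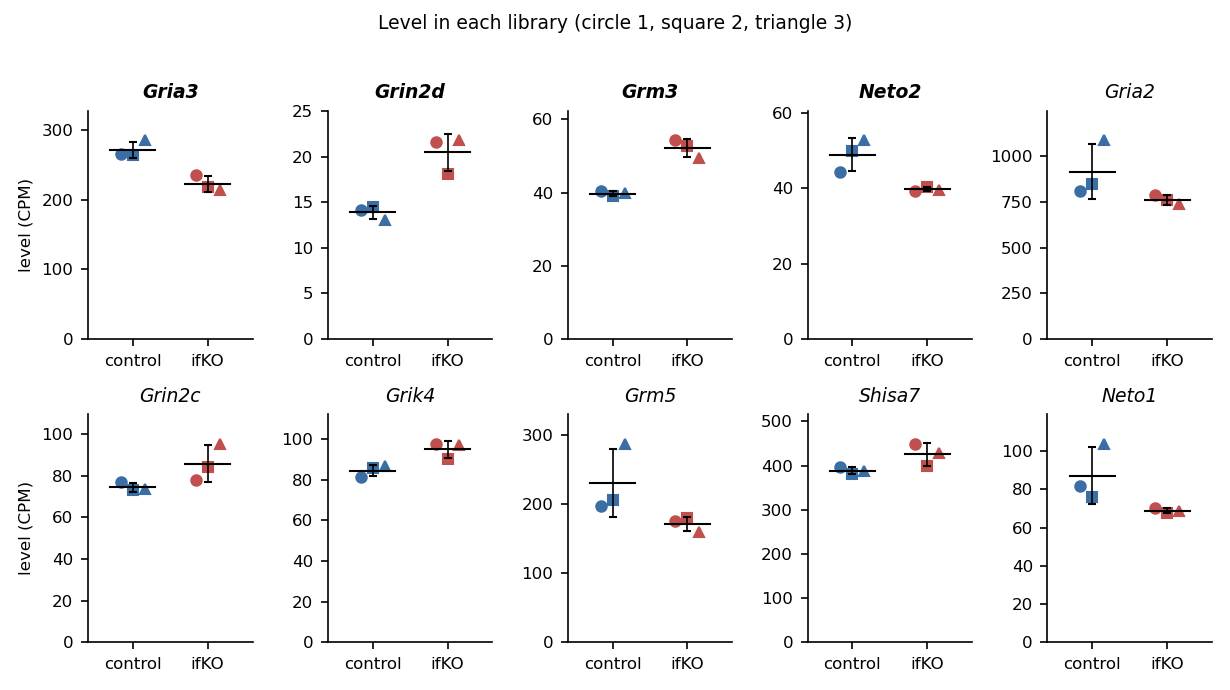
Level in CPM (y axis, from 0) of the 4 members that passed the test (bold names) and of 6 tested members whose groups do not overlap but did not pass. Each symbol is 1 library, bars are means and whiskers SD of 3 libraries. Control replicate 3, the triangle, is the highest control for Gria2 (1086 CPM), Grm5 (288 CPM) and Neto1 (104 CPM).

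Kainate receptor subunits gave 0 of 5 calls in either direction in edgeR and 0 in DESeq2, with 1 gene at an unadjusted p-value under 0.05. That gene is Grik4, for the high-affinity subunit GluK4 found at mossy fibre synapses of CA3. It read 81.4, 85.5 and 86.5 CPM in controls and 97.6, 90.0 and 96.9 in Kdm1a-ifKOs. All Kdm1a-ifKO libraries were above all controls, with a log2 fold change of 0.17 (SE 0.0552, adjusted p = 0.0797, edgeR). It passed under upper-quartile scaling (0.19, 0.0401) and without both apart libraries (0.22, 0.0161). Grik5, for GluK5, the other high-affinity subunit, had 287, 279 and 238 CPM in controls and 287, 279.6 and 278 in Kdm1a-ifKOs. Control replicate 3 was alone at the low end, and the log2 fold change of 0.071 was -0.0042 without it. Grik2, for GluK2, a pore-forming subunit of mossy fibre receptors, had 76.1, 77.5 and 88.1 CPM in controls and 74.8, 69.9 and 77.1 in Kdm1a-ifKOs, overlapping at a log2 fold change of -0.12 (adjusted p = 0.276, edgeR). Grik1, for GluK1, which hippocampal interneurons express, was 16.3 ± 1.04 CPM in controls and 15.2 ± 1.06 in Kdm1a-ifKOs (SD, n = 3). Grik3, for GluK3, a presynaptic subunit of low affinity, was 76.1 ± 2.95 CPM and 79.1 ± 11.3, and its sign turned without Kdm1a-ifKO replicate 1 (-0.0037) or replicate 2 (-0.0084).

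Both auxiliary subunits of kainate receptors lay lower in every Kdm1a-ifKO library, and 1 of 2 passed the test. Neto2 (chr8:85636588-85700924), a CUB-domain protein that slows the desensitisation of kainate receptors and binds the chloride transporter KCC2, read 44.2, 49.8 and 52.8 CPM in controls and 39.2, 40.3 and 39.7 in Kdm1a-ifKOs. The Kdm1a-ifKO libraries lay within about 1 CPM of each other, below a wider spread of controls. The log2 fold change was -0.30 (SE 0.0699, 95% interval -0.45 to -0.15, adjusted p = 0.0176, edgeR). The call ended without Kdm1a-ifKO replicate 1 (-0.29, adjusted p = 0.0712) and without Kdm1a-ifKO replicate 3 (-0.30, adjusted p = 0.0546), both in edgeR. Neto1, which sets the slow kinetics of mossy fibre kainate receptors and also associates with NMDA receptors, read 81.9, 75.9 and 104 CPM in controls and 70.3, 67.6 and 68.8 in Kdm1a-ifKOs. The groups did not overlap, and control replicate 3 was far above the others. Its log2 fold change of -0.34 (adjusted p = 0.0839, edgeR) was -0.19 without control replicate 3 and passed without control replicate 2 (-0.44, 0.0106) and in DESeq2 (-0.34, 0.00958). Mir8109 lies within Neto2 and AC113599.1 overlaps Neto1, each on the opposite strand.

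Grid1 encodes GluD1, a delta receptor that binds cerebellins across the cleft and helps to organise synapses. It was 81.3 ± 4.85 CPM in controls and 88.4 ± 2.94 in Kdm1a-ifKOs (SD, n = 3), and the groups overlapped (log2 fold change 0.12, adjusted p = 0.225, edgeR).

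Of 6 metabotropic receptors tested, 1 rose and 0 fell. Grm3 (chr5:9485541-9725170) encodes mGlu3, a receptor of group II that lowers cyclic AMP and in adult brain is found mainly on astrocytes. It read 40.3, 39.0 and 39.9 CPM in controls and 54.2, 52.8 and 49.4 in Kdm1a-ifKOs. The controls lay within about 1 CPM of each other and every Kdm1a-ifKO library was above them. The log2 fold change was 0.39 (SE 0.0604, 95% interval 0.26 to 0.52, adjusted p = 0.00114, edgeR), between 0.364 and 0.428 with each library left out. Grm2, for mGlu2, the presynaptic group II receptor of granule cells and their mossy fibres, had 102, 75.7 and 72.7 CPM in controls and 80.6, 84.6 and 81.2 in Kdm1a-ifKOs. Control replicate 1 was alone at the top, and without it the log2 fold change of -0.023 became 0.15. It was also positive, at 0.0017, under upper-quartile scaling.

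Grm5, the group I member, encodes mGlu5, which couples to Gq beside the postsynaptic density through Homer. It read 198, 207 and 288 CPM in controls and 176, 179.7 and 160.0 in Kdm1a-ifKOs. The groups did not overlap, and control replicate 3 was again far above the rest. The log2 fold change was -0.42 (SE 0.154, adjusted p = 0.164, edgeR), and it shrank to -0.23 but passed (0.0201) without control replicate 3. Group III receptors, presynaptic brakes on transmitter release, gave 0 calls of 3 tested in edgeR and 0 in DESeq2, with 1 gene at an unadjusted p-value under 0.05, Grm8. It read 8.73, 7.88 and 6.02 CPM in controls and 5.71, 6.45 and 4.52 in Kdm1a-ifKOs. Control replicate 3 and Kdm1a-ifKO replicate 2 made the groups overlap. The log2 fold change of -0.44 (adjusted p = 0.128, edgeR) became -0.58 (0.0437) without control replicate 3 and -0.70 (0.0109) without both apart libraries, past the threshold each time. Grm7, the low-affinity receptor at the release site, had 55.6, 51.6 and 62.8 CPM in controls and 53.3, 50.5 and 50.0 in Kdm1a-ifKOs, and Grm4 had 16.6, 15.3 and 14.8 CPM and 16.1, 21.3 and 16.2 CPM. Both overlapped between the groups. Grm6, the receptor of retinal bipolar cells, had 1 count over the 6 libraries and was not tested.

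Neither scaffold passed the edgeR test or that of DESeq2, and 1 of the 2 had an unadjusted p-value under 0.05. Dlg4 encodes PSD-95, the anchor of the postsynaptic density, and had 839, 797 and 743 CPM in controls and 776, 698 and 747 in Kdm1a-ifKOs. The groups overlapped (log2 fold change -0.10, adjusted p = 0.324, edgeR). Homer1 links group I receptors to calcium stores, and its short form, induced by activity, is not separated in counts per gene. It had 128, 112 and 126 CPM in controls and 102, 98.8 and 115 in Kdm1a-ifKOs. Kdm1a-ifKO replicate 3 reached into the control range. The log2 fold change of -0.21 (adjusted p = 0.0807, edgeR) passed without control replicate 2 (-0.28, 0.0365) and also when Kdm1a-ifKO replicate 3 was left out (-0.29, 0.0437).

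Levels of different genes were compared per length, as TPM over the union of exons, in the 3 control libraries. Cnih2 came first with 1041 ± 36.6 TPM and Gria1 second with 844 ± 27.1 TPM (SD, n = 3). These 2 were apart from each other and from the next, Dlg4 at 238 ± 15.5 TPM. Gria2 (234 ± 37.2 TPM) and Shisa7 (232 ± 5.19 TPM) followed, and Dlg4, Gria2 and Shisa7 did not differ beyond their spread. The first 5 genes made up 61.7% of the 4196 TPM summed over the members. At the low end stood Grin2d with 8.31 ± 0.46 TPM and Grm8 with 3.03 ± 0.568 TPM, each apart from its neighbours, above the untested Grin3b and Grm6. Of 32 neighbouring pairs in the order, 12 did not overlap between their control libraries. The order of called members was place 9 for Gria3 (109.7 ± 4.35 TPM), 19 for Grm3 (51.8 ± 1.000 TPM), 25 for Neto2 (31.7 ± 2.69 TPM) and 30 for Grin2d. Length matters for some places: by CPM, Cnih2, with 1.37 kb of exons, was at place 7, and Grin2b, with 24.84 kb, moved from place 10 to place 4.

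**Figure D3:**
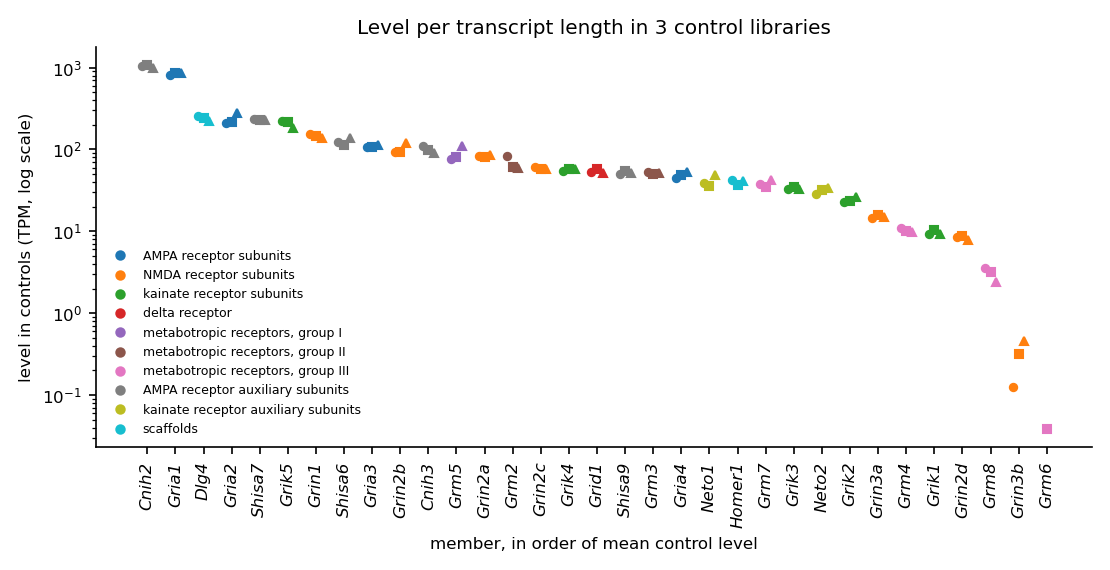
Level of the 33 members as TPM (log scale) in the 3 control libraries (circle, square and triangle for replicates 1, 2 and 3), in order of their mean and coloured by class. Libraries at 0 are not drawn. Cnih2 and Gria1 lead, and Grin3b and Grm6 lie under 1 TPM.

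Within classes the make-up of subunits can be read as a share of summed TPM, a description without a test. These shares depend on the gene length used. The union of exons is 15.5 kb for Gria2 and 6.04 kb for Gria1. With the longest transcript as length, Gria2 held 22.8% of AMPA subunit TPM in controls. By CPM, without length, Gria1 made up 50.4% of the AMPA sum in controls. Gria1 took 69.4, 69.5 and 66.2% of AMPA subunit TPM in controls and 72.8, 70.5 and 73.2% in Kdm1a-ifKOs. All Kdm1a-ifKO libraries held the larger share. Gria3 took 9.15, 8.76 and 8.74% in controls and 7.7, 7.93 and 7.46% in Kdm1a-ifKOs, lower in each Kdm1a-ifKO library. Gria2 took 17.7, 17.8 and 21.1% and 16.3, 17.5 and 16.2%, also lower in each but close to control replicates 1 and 2 in Kdm1a-ifKO replicate 2. Among GluN2 subunits, Grin2d rose in share from 3.45, 3.62 and 2.88% in controls to 5.14, 4.61 and 5.18% in Kdm1a-ifKOs. Grin2b held 40.4 ± 3.32% in controls and 35.9 ± 2.36% in Kdm1a-ifKOs (SD, n = 3). Here too the Kdm1a-ifKO libraries were all lower, by little for replicate 1. Kainate shares overlapped between the groups for all 5 subunits, Grik5 holding 62.3 ± 2.88% in controls and 62.6 ± 0.382% in Kdm1a-ifKOs (SD, n = 3). The ratio of Grin2d to Grin1, as TPM, was 0.0569 ± 0.00258 in controls and 0.0877 ± 0.00787 in Kdm1a-ifKOs.

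**Figure D4:**
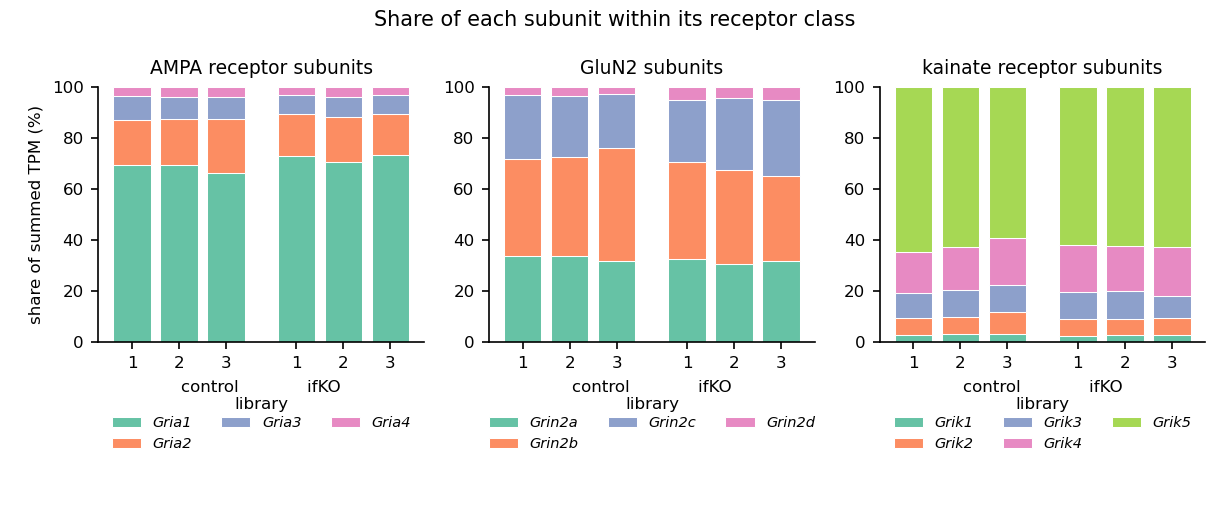
Share of each subunit in the summed TPM of AMPA, GluN2 and kainate subunits (y axis, percent) in every library, controls left and Kdm1a-ifKOs right. Shares depend on the gene length used, here the union of exons. Grin2d took a mean of 3.32% of GluN2 TPM in controls and 4.97% in Kdm1a-ifKOs, and Gria3 8.88% and 7.7% of AMPA TPM.

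Other genes of the glutamatergic synapse were counted from 4 lists of 80 genes, all tested. In edgeR, 4 were higher (5% against 6.04% of all tested genes) and 7 lower (8.75% against 2.82%), 11 in all, with a median log2 fold change of -0.019. The 11 calls became 4 without Kdm1a-ifKO replicate 1 and 3 without Kdm1a-ifKO replicate 3. Of 18 other receptor and AMPA auxiliary genes, Cacng5, a TARP, rose, and Olfm3 and Frrs1l fell. Olfm3, an olfactomedin found with AMPA receptors, read 15.1, 16.6 and 17.4 CPM in controls and 8.9, 10.3 and 9.14 in Kdm1a-ifKOs. No library of 1 group reached the other, and the log2 fold change was -0.80 (SE 0.0989, adjusted p = 0.000198, edgeR). Frrs1l, a factor of AMPA receptor assembly, read 339, 346 and 413 CPM in controls and 310.4, 303 and 297 in Kdm1a-ifKOs, apart but with control replicate 3 high, and its call ended without any 1 Kdm1a-ifKO library, at adjusted p-values of 0.0834, 0.0652 and 0.107 in edgeR. That of Cacng5 (log2 fold change 0.50, adjusted p = 0.0146, edgeR) ended without Kdm1a-ifKO replicate 3 (0.0694) and, just above 0.05, without control replicate 1.

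Of 22 scaffold and trafficking genes, Homer3 and Sqstm1 were called higher and Dlgap2 and Grip1 lower. Homer3, a relative of Homer1, read 42.4, 43.9 and 40.9 CPM in controls and 57.7, 47.9 and 60.1 in Kdm1a-ifKOs. Each Kdm1a-ifKO library was above each control, and the log2 fold change of 0.38 had an adjusted p of 0.0115 in edgeR, which rose to 0.0596 without Kdm1a-ifKO replicate 1 and 0.0564 without Kdm1a-ifKO replicate 3. The other calls were weaker in this respect: Grip1 (log2 fold change -0.24) lost its call without any 1 of the 6 libraries, at adjusted p-values from 0.0608 to 0.171 in edgeR, and also in DESeq2 (0.111), under upper-quartile scaling (0.0686) and with a replicate block (0.0881), Dlgap2 (-0.31) without control replicate 1 (0.126) or 3 (0.131) or any Kdm1a-ifKO replicate (0.0933, 0.105 and 0.16), and Sqstm1 (0.20) without control replicate 2 (0.0694) or Kdm1a-ifKO replicates 1 (0.0664) and 3 (0.0973).

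Of 23 kinase and signalling genes, Ppp1r1b rose and Rgs4 fell, and both kept their call with each library left out. Ppp1r1b, for the phosphatase inhibitor DARPP-32, read 37.7, 35.4 and 33.6 CPM in controls and 47.3, 47.1 and 45.9 in Kdm1a-ifKOs. Rgs4, which shortens signals of Gq-coupled receptors such as mGlu5, read 191, 189 and 192 CPM in controls and 143, 145 and 138 in Kdm1a-ifKOs. Both genes separate the groups with wide gaps, at log2 fold changes of 0.39 (adjusted p = 0.00156, edgeR) and -0.43 (adjusted p = 8.18e-05, edgeR). Camk2a, the most abundant of these genes, was 4642 ± 111 CPM in controls and 4818 ± 296 in Kdm1a-ifKOs (SD, n = 3). Of 17 adhesion and secreted partners, Lrrtm2 and Adam23 were called lower. Lrrtm2, a postsynaptic ligand of neurexins that holds AMPA receptors in place, read 52.5, 62.1 and 67.5 CPM in controls and 49.6, 48.0 and 46.2 in Kdm1a-ifKOs and overlaps Ctnna1 on the opposite strand. Its groups were apart, but the adjusted p of 0.0251 in edgeR rose to 0.0598 without control replicate 2 and to 0.0639, 0.0503 and 0.0868 without Kdm1a-ifKO replicates 1, 2 and 3. Adam23, a receptor of secreted LGI1 (log2 fold change -0.18, adjusted p = 0.0462, edgeR), lost its call without control replicates 2 (0.078) and 3 (0.0923) and without Kdm1a-ifKO replicates 1 (0.147), 2 (0.0733) and 3 (0.153), and also under upper-quartile scaling (0.079), with at least 10 counts as the filter (0.0542) and with a replicate block (0.109).

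Because called members differ in the cells that express them, levels of cell type markers are given beside them. For all marker lists the background is 6.04% of tested genes higher and 2.82% lower. Grm3 and Grin2c are expressed largely in astrocytes, and 3 of 8 astrocyte markers were higher in edgeR (Slc1a3, S100b and Aldoc) and 0 lower. Their summed level was 5656, 5475 and 6089 CPM in controls and 6118, 6307 and 6439 in Kdm1a-ifKOs, without overlap. Slc1a2 was the most abundant, at 3095 ± 279 CPM and 3206 ± 51.0. Markers called higher numbered 0 with control replicate 2 or Kdm1a-ifKO replicate 3 left out, 1 with Kdm1a-ifKO replicate 1 left out and 2 with control replicate 1 or Kdm1a-ifKO replicate 2 left out. Of 7 microglia markers, 3 were higher (Cx3cr1, Tmem119 and Csf1r), and their sum was 348, 328 and 358 CPM in controls and 375, 432 and 481 in Kdm1a-ifKOs, also apart, with Csf1r the most abundant at 115 ± 4.44 CPM and 144 ± 18.3. These calls numbered 0 with control replicate 1, control replicate 2 or Kdm1a-ifKO replicate 3 left out, 1 and 5 with Kdm1a-ifKO replicates 2 and 1 left out, and 2 with control replicate 3 left out. All markers of both lists had counts above 10.

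Grin2d, Grik1 and Gria4 are prominent in interneurons. Of 11 interneuron markers, 2 were lower (Vip and Npy) and 0 higher. The sum was 1216, 1268 and 1192 CPM in controls and 1159, 1151 and 1146 in Kdm1a-ifKOs, lower in each Kdm1a-ifKO library, and Gad1 led with 376 ± 24.1 CPM and 353 ± 19.9. Lower calls numbered 3 without Kdm1a-ifKO replicate 2, and without Kdm1a-ifKO replicate 1 or 3 that of Vip ended (0.063 and 0.0548, edgeR adjusted p). The list went both ways: every Kdm1a-ifKO library lay below all controls for 4 of its genes and above them for 2, Lhx6 (log2 fold change 0.23, adjusted p = 0.0866, edgeR) and Sst (0.069, 0.447). Gria3 and Neto2 are expressed widely in principal neurons. The summed level of excitatory neuron markers was 7866, 7548 and 7396 CPM in controls and 8012, 7236 and 7949.8 in Kdm1a-ifKOs and overlapped between the groups, Camk2a leading. For CA2 and CA3, which use Grik4 and Neto1 and whose list of 7 holds Grik4 itself, Necab2 was higher and Nectin3 lower. The sum was 446, 438 and 440.2 CPM in controls and 492, 466 and 525 in Kdm1a-ifKOs, above the controls each time, and Rgs14 led with 108 ± 2.68 CPM and 123 ± 7.6. Higher calls numbered 2 with control replicate 1 left out and 3 with Kdm1a-ifKO replicate 2 left out. The part of these cell types in the members' changes was not tested.

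Of 6 dentate granule cell markers, C1ql2 was higher (79.5, 84.5 and 65.2 CPM in controls, 123, 97.4 and 115 in Kdm1a-ifKOs), a call that ended without control replicate 1 (0.0669) and Kdm1a-ifKO replicates 1 (0.0639) and 3 (0.118, edgeR adjusted p). Dsp, at 58.3, 49.2 and 63.9 CPM in controls and 75.9, 69.0 and 67.3 in Kdm1a-ifKOs, did not pass (log2 fold change 0.31, adjusted p = 0.0576, edgeR) but did in DESeq2, under upper-quartile scaling, without a filter or with at least 10 counts, with a replicate block, and without control replicate 3 or both apart libraries. The sums of the list overlapped, with 484, 483 and 508 CPM and 561, 480.0 and 514 CPM. Calls in edgeR numbered 0 for 5 CA1 markers, 8 oligodendrocyte, 5 precursor, 6 endothelial and 4 ependymal markers, with 0, 0, 1, 0 and 0 genes at an unadjusted p-value under 0.05. Without control replicate 1, Man1a of the CA1 list was called lower and Cspg4 of the precursor list higher. Cspg4 was also called higher under upper-quartile scaling and without a filter on low counts. DESeq2 called 0, 0, 0, 0 and 0 genes of the 5 lists. The most abundant genes of these 5 lists were Mpped1, Mbp, Gpr17, Flt1 and Foxj1. Their group means of summed CPM, controls then Kdm1a-ifKOs, were 734 and 741 for CA1, 5555 and 5809 for oligodendrocytes, 212 and 224 for their precursors, 193 and 203 for endothelium and 20.3 and 19.6 for ependyma. Mbp passed the edgeR test without Kdm1a-ifKO replicate 1 (0.26, 0.0179). Of 6 choroid plexus markers, Kl alone was higher, at 23.8, 22.5 and 26.9 CPM in controls and 60.6, 56.4 and 60.0 in Kdm1a-ifKOs, a gene that neurons express as well. Ttr, the marker that defines this tissue, read 32.0, 10.7 and 7.04 CPM and 3.29, 6.24 and 8.16 CPM, highest in control replicate 1. The sum of this list was 61.1, 36.2 and 36.6 CPM in controls and 65.6, 64.9 and 72.4 in Kdm1a-ifKOs, above the controls in each Kdm1a-ifKO library, where Kl makes up most of it. Of 7 thalamus markers, Prkcd was higher, with sums of 139, 145 and 148 CPM and 147, 165 and 159.8 CPM that overlap, and Ntng1 led. Without Kdm1a-ifKO replicate 1, Zic1 was called higher as well, and without Kdm1a-ifKO replicate 3, Otx2 of the choroid plexus list was called lower. Of 12 immediate early genes, which follow neuronal activity, Bdnf was lower (log2 fold change -0.25, adjusted p = 0.0273, edgeR), and its call ended when control replicate 1 (0.0602), Kdm1a-ifKO replicate 1 (0.0907) or Kdm1a-ifKO replicate 2 (0.0929) was left out and, with a value just above 0.05, when control replicate 3 was. Their sum was 896, 655 and 661 CPM in controls and 557, 730.4 and 604 in Kdm1a-ifKOs, with Arc the most abundant.

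**Figure D5:**
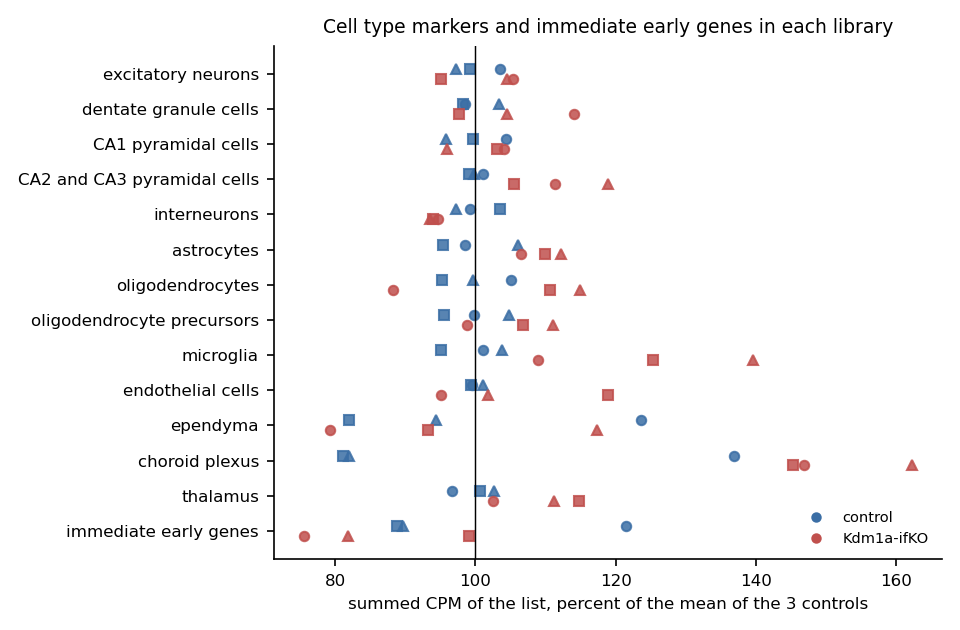
Summed CPM of each marker list in every library as a percent of the mean of the 3 controls (x axis), controls in blue and Kdm1a-ifKOs in red (circle, square and triangle for replicates 1, 2 and 3). Choroid plexus, microglia, astrocyte and CA2 and CA3 sums are above all controls in each Kdm1a-ifKO library and interneuron sums below, with ratios of group means of 1.51, 1.25, 1.1, 1.12 and 0.94.

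CTCF loops give the position of these genes in the folded genome of excitatory neurons, from 1 ChIA-PET library of sorted nuclei and without replicates, so as a description only. By the paper's methods, such nuclei were sorted from Camk2a-creERT2 x CAG-Sun1/sfGFP mice at 12 weeks of age, 1 month after tamoxifen. That is a different strain from the mice of the RNA libraries. A loop joins a pair of anchors bound by CTCF, and PETs are the paired-end tags that support it. An anchor lay within 10 kb of 23 of the 33 members (69.7%), and of 56.9% of all tested genes. Members are long, with a median gene length of 184 kb against 21.3 kb, and among genes of at least 100 kb the shares were 12 of 21 members (57.1%) and 67.4% of tested genes. Of called members, Neto2 had 8 loops with 99 PETs, and in the strongest, of 36 PETs, an anchor at chr8:85698662-85701676 covers the printed promoter and the other anchor lies 886 kb away at chr8:86584509-86587054. Grin2d had 4 loops with 30 PETs, all at its start, the strongest joining chr7:45871381-45874709 with chr7:45738497-45740105. Gria3 and Grm3 had 0 loops. Grin2c had the strongest loop of all members, with 99 PETs over 70.0 kb, and Cnih2, in a gene-dense region, had the most loops, 29. The series holds no CTCF ChIA-PET library of Kdm1a-ifKO mice, so loops could not be compared between the genotypes.

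Over the libraries, control replicate 3 was the highest of the 6 for 11 of the 31 tested members, against 24.9% of all tested genes. Kdm1a-ifKO replicates 2 and 3 were the lowest for 8 and 9 members, with no share over all genes to set beside these counts. With control replicate 3 and Kdm1a-ifKO replicate 2 left out, Grin2d (0.60), Grm3 (0.39), Gria3 (-0.23) and Neto2 (-0.25) kept their calls, with edgeR adjusted p-values of 0.000408, 0.00122, 0.00700 and 0.0361. Gria4 (-0.28), Grm5 (-0.26) and Grm8 (-0.70) joined them on the lower side, and Grik4, Shisa6 and Shisa7 on the higher, while Gria2 (-0.12), Grin2b (-0.056) and Neto1 (-0.18) had smaller values than with all libraries. Of other genes named above, Grip1 (0.0527), Dlgap2 (0.186), Lrrtm2 (0.0518), Adam23 (0.075), Tmem119 (0.107), Csf1r (0.254) and Bdnf (0.0978) lost their calls, and Rgs14 was called higher (0.00738, all edgeR adjusted p). Microglia calls thus went from 3 to 1.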

How the data were processed

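The authors made the deposited RNA-seq counts from single-end poly-A reads with cutadapt 1.18, HISAT2 2.1.0 (mm10) and HTSeq 0.11.1, as raw counts per Ensembl gene. Their methods name a filter for nuclear chromosomes, yet the table holds counts of mitochondrial genes, and mt-Cytb had the highest CPM of all tested genes. The deposited loops give counts of PETs, at least 3 per loop, from 1 CTCF ChIA-PET library. Everything else was computed here. Genes were named from GENCODE M21 (48435 of 48795 found, 99.3%), filtered with filterByExpr and tested in edgeR 4.0.16 (R 4.3.3) with TMM scaling, robust dispersions, a quasi-likelihood F test on genotype alone, 3 libraries against 3, and Benjamini-Hochberg adjustment over 16799 genes at 0.05. The fit was tested on simulated counts. Their changes were larger than that of any tested member, and differences between libraries like those seen here were not simulated. The simulation therefore does not bear on changes of the size reported here. TPM divide counts by the union of exons. An exact permutation of 3 against 3 cannot give a two-sided p under 0.1 and was not used. Tables and plots were made in Python 3.11.15 with pandas 2.3.3, numpy 2.4.6 and matplotlib 3.10.9.

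The members and lists were chosen with earlier results of these data known. Named with values in every library were called members, and in each class the member of highest control TPM and those of largest and smallest log2 fold change. Gria4 and Shisa7 are also given so, outside this rule, as are Gria2 and Grin2c, which were named after their values were seen. In the postsynaptic lists up to 5 called genes per list were named, and in marker lists the most abundant and the called genes, some without their values in every library. For excitatory neurons only the sum and the most abundant gene are given. The marker lists were excitatory neurons, dentate granule cells, CA1, CA2 and CA3, interneurons, astrocytes, oligodendrocytes, their precursors, microglia, endothelium, ependyma, choroid plexus, thalamus and immediate early genes. Camk2a, Grik4 and Reln are each in 2 lists. Alternatives were DESeq2 1.42.0, its size factors in edgeR, upper-quartile scaling, at least 10 counts in all or no filter, a log2 fold change over 0.5, a replicate block, each library left out, other gene lengths, and other loop distances and PET minimums. Leaving out both libraries that stand apart was added after the data were seen. Loop anchors are in mm10 and promoters in GRCm38.p6.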

Additional observations from a re-analysis of the deposited data

How the results depend on the processing

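Over 13 other fits, 362 of 403 log2 fold changes of tested members kept their direction and their side of the threshold, 26 passed only there, 2 no longer passed and 13 turned sign. The direction held in every fit for 25 of 31 members. Of the other named genes whose values were compared in this way, 429 values kept both, 79 no longer passed, 5 passed only there and 7 turned sign. Dsp, Man1a, Cspg4, Zic1 and Otx2 are not in this tally, and their calls in other fits are given above. Members called lower (2) were 5 in DESeq2 (among 527 over all genes), 8 without a filter on low counts (among 1090), 0 with a log2 fold change over 0.5 and 5 without both apart libraries. Those called higher (2) were 1 with the fold threshold and 5 without both apart libraries. With each library left out, they ranged from 2 to 3 higher and from 1 to 4 lower. Over all genes, the range was from 646 to 876 higher and from 137 to 584 lower, with 530 and 47 past the fold threshold and 1090 lower without a filter. The 11 other postsynaptic calls became 23 without a filter, and 3 to 13 with each library left out. The causes were not tested.

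Replicate numbers do not pair the libraries: correlations of deviations between libraries of the same number were -0.0316, -0.0886 and -0.144, and other numbers matched better. As a replicate block, they gave 249 genes lower over all genes, 7 other postsynaptic calls, and 3 members lower, with Neto1 at -0.33 (0.0483, edgeR adjusted p).

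Signs turned under upper-quartile scaling for Gria1 (0.023), Grm2 (0.0017) and Ntng1 (0.016), without a filter for Gria1 (0.0028), and without both apart libraries for Gria1 (0.076), Grik3 (-0.024) and Foxj1 (-0.013). With each library left out, log2 fold changes that turned ranged over -0.050 to 0.047 (Gria1), -0.0084 to 0.17 (Grik3), -0.0042 to 0.12 (Grik5), -0.11 to 0.15 (Grm2), -0.033 to 0.12 (Shisa6), -0.0075 to 0.11 (Cnih2), -0.17 to 0.19 (Foxj1) and -0.094 to 0.11 (Ntng1).

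With the longest transcript as length, the share of Gria2 was 22.8% in controls and 20.4% in Kdm1a-ifKOs and that of Grin2d 5.53% in Kdm1a-ifKOs. With each library left out, shares ranged from 17.7% to 19.4% (Gria2, controls), 16.3% to 16.9% (Gria2, Kdm1a-ifKOs), 38.5% to 41.6% (Grin2b, controls), 35.0% to 37.3% (Grin2b, Kdm1a-ifKOs), 3.16% to 3.53% (Grin2d, controls) and 4.87% to 5.16% (Grin2d, Kdm1a-ifKOs). Of other named genes, Frrs1l (0.0527), Sqstm1 (0.0598) and Aldoc (0.0752) lost their calls with the replicate block, and Dlgap2 did, just above 0.05, under upper-quartile scaling. Of the first 10 members by TPM, 9 stayed among them by either other measure. With at least 5 PETs, 15 members had an anchor, with 18 at 0 kb and 24 at 25 kb. With 3 libraries a group, 95% intervals of members that were not called were as wide as -0.80 to -0.046 (Grm5), -0.81 to -0.076 (Grm8) and -0.31 to 0.27 (Grm2), against -0.13 to 0.12 for Gria1, so sizeable changes could have gone unseen in some of them.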
